A study of Rattus norvegicus with 28 samples.

Results

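The complement genes described here are 9 features of the array: C1qa, C1qb, C1s, C2, C3, C3ar1, C5ar1, Cfi and Serping1. They were chosen by gene name among 35469 features of a rat gene expression microarray, and 12 of its 41012 probes carry those names. The samples were spinal cords of adult female Sprague Dawley rats, with 4 arrays in each of 7 groups (28 in all). T0 denotes the cords that the sample labels call sham and the study's methods treat as uninjured. T1, T2, T4 and T8 denote cords taken 1, 2, 4 and 8 weeks after a contusion spinal cord injury (SCI) of 250 kdyn at thoracic level 8. T1_NPC animals received neural progenitor cells (NPCs) directly after injury and were examined 1 week after SCI, and T2_NPC animals received them 1 week after injury and were examined 2 weeks after SCI. The NPCs came from injured adult spinal cord, and the cells were injected 2 mm rostral and caudal to the lesion. In the study's methods, injured control animals were injected with cell-free medium and all animals received 1 mg/kg tacrolimus, an immunosuppressant. The tissue was a 1.5 cm piece of whole cord around the lesion, so each value averages over all of its cell types.

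Complement is a cascade of blood and tissue proteins that tags cells, debris and synapses for removal and calls in inflammatory cells. In the classical pathway, C1q recognises its target, the proteases C1r and C1s cut C4 and C2, and the resulting enzyme cuts C3, whose fragments coat the target. The small fragments C3a and C5a signal through receptors on myeloid cells, while inhibitors such as C1 inhibitor and factor I limit the cascade. In the central nervous system, microglia are the main source of C1q, and astrocytes, fibroblasts and infiltrating leukocytes make other components.

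Values are log2 intensities, quantile normalized between arrays by the authors, and a difference of 1 on this scale is a doubling of signal. The share of probes well above background ranged from 74.5% to 82.7% over the arrays and was lowest in T1_NPC (74.5% to 76.4%). Each of the 12 complement probes was well above background on all 28 arrays, with no saturated spot and none marked as an outlier. The deposited value table and the deposited scanner outputs name different samples for 16 of the 28 arrays, among them every T1_NPC array. The value table is used here under its own sample names, and each of its columns matched exactly 1 scanner output by rank. By this matching, arrays of T0, T1, T2, T4 and T8 were scanned in the same 2 sessions, while both transplanted groups had slides and a session of their own, so that transplantation and scan session cannot be told apart. Marker genes of neurons and oligodendrocytes were measured on the T0 arrays. At T1, 7 of 8 neuronal and 5 of 7 oligodendrocyte markers fell, whereas 11 of 12 microglia and macrophage markers, 6 of 6 T cell markers and 6 of 6 fibroblast and pericyte markers rose.

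Complement gene expression was higher after injury at all 4 time points. At T1, 8 of 9 complement genes rose against T0 and none fell, with a median log2 difference of 2.74 against a median of -0.10 over all features. The share of all features called higher in that comparison was 19.1%. At T2 all 9 genes rose (17.7% of all features called higher), at T4 8 of 9 rose (17.5%), and at T8 8 of 9 rose (18.2%). The medians over the 9 genes were 2.70 at T2, 2.49 at T4 and 2.48 at T8. The gene that did not pass the test at T1, T4 and T8 was C3. In bulk tissue, more cells of a type and more RNA per cell cannot be told apart, so these differences are differences of the cord sample. Within each of the 2 scan sessions taken alone, no gene changed the sign of its difference. When scanner outputs replaced the value table and kept the samples they were deposited for, 0 of 9 genes were called by limma at any of the 4 time points. At an unadjusted p under 0.05, that setting gave 1 gene each at T1 and T2, 7 at T4 and 4 at T8. It mixes the groups of the value table, since 16 of the 28 arrays are named differently. The time course arrays that both sources name alike are those of scan session 1. In a fit of undisputed arrays alone, with 2 arrays each of T0, T2 and T8, no gene called at T2 or T8 lost its call.

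**Figure D1:**
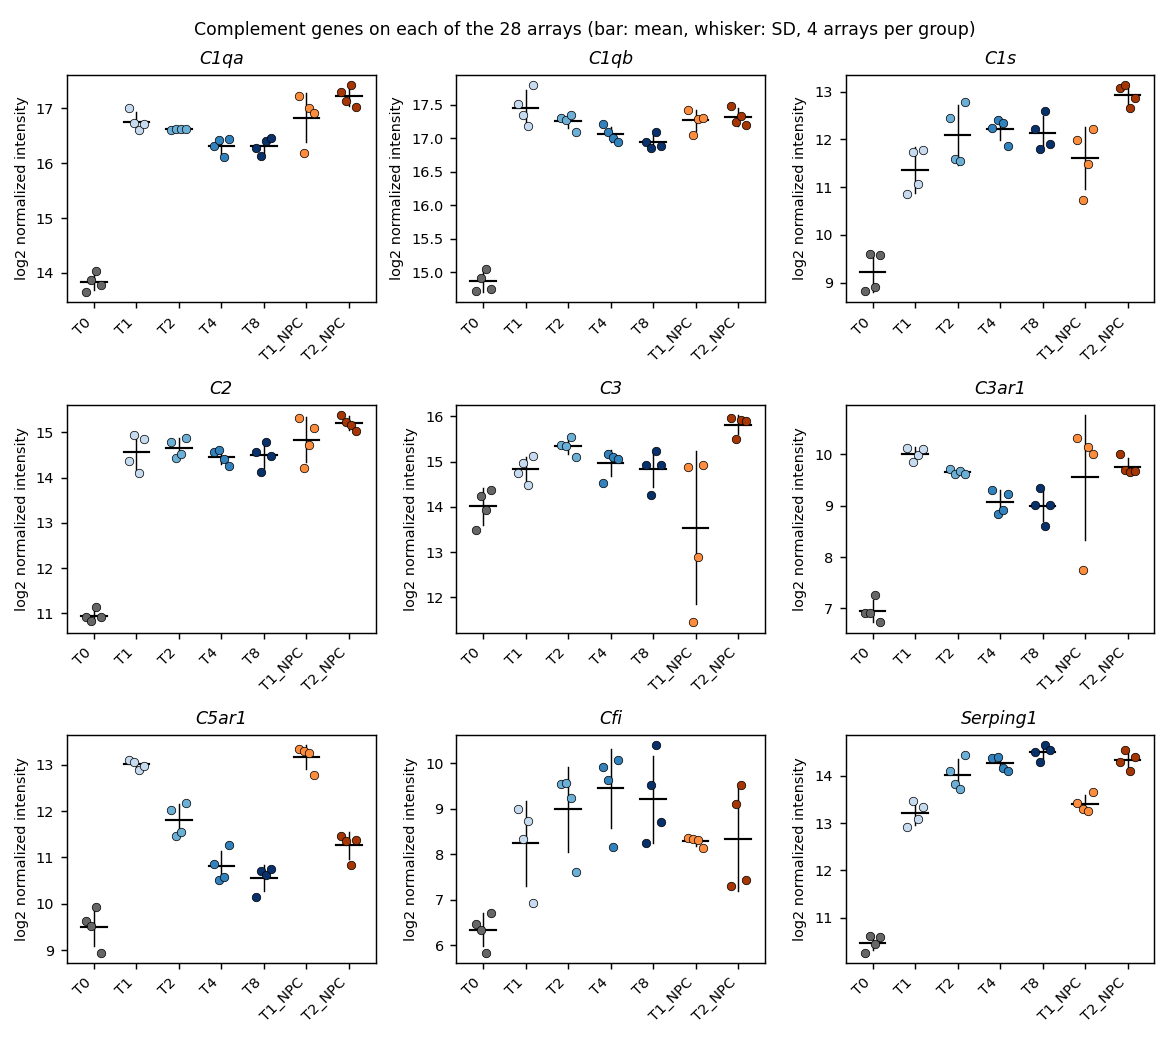
Log2 normalized intensity (vertical axis) of the 9 complement genes in the 7 groups (horizontal axis). Points are single arrays, 4 in each group, bars are group means and whiskers are SD. Injured groups lie above T0 for all genes but C3, where T0 and injured arrays overlap in T8 and T1_NPC. C5ar1 is highest in T1 and T1_NPC, and Serping1 is highest in T8.

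Among the time points without transplantation, the subunits of C1q, the recognition molecule of the classical pathway, had their largest differences from T0 at T1. C1qa lay at 13.65, 13.87, 14.04 and 13.78 on the 4 T0 arrays and at 17.00, 16.73, 16.60 and 16.71 on the 4 T1 arrays. Every T1 array was above every T0 array, and the T2, T4 and T8 arrays lay between 16.11 and 16.63. The log2 difference from T0 was 2.92 (SE 0.16) at T1, a 7.59-fold rise with an adjusted p of 6.16e-13, and 2.48 (SE 0.16) at T8. C1qb, the B chain, ranged from 14.72 to 15.05 in T0 and from 17.18 to 17.80 in T1, a log2 difference of 2.60 (SE 0.12, adjusted p = 3.50e-14). At T8 it ranged from 16.85 to 17.10, 2.09 (SE 0.12) above T0. The difference between T8 and T1 was itself called for C1qb, which was lower by 0.51 on the log2 scale at T8 (SE 0.12, adjusted p = 0.00627). That call was lost with only T1 and T8 in the fit (-0.51, adjusted p = 0.0762). With undisputed arrays alone, which leave 1 T1 array, the difference was -0.63. For C1qa the difference between T8 and T1 was -0.44 (SE 0.16) with an adjusted p of 0.0826.

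C1qa was measured by 2 probes, shown here because both gave the same direction at different places of the transcript. On the rn4 assembly of the array annotation they lie on the minus strand of chromosome 5, at chr5:155662767-155662826 and chr5:155662578-155662637, and their places in the transcript are those of the array annotation. Sequences are written 5′ to 3′, in lower case because no part of them is singled out.
C1qa upstream probe: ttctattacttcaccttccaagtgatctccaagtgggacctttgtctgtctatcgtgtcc
C1qa downstream probe: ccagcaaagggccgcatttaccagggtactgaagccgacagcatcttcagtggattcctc
The upstream probe, which starts at base 508 of its transcript, rose by 3.14 on the log2 scale (SE 0.16) at T1, and the downstream probe, which starts at base 697, by 2.71 (SE 0.16). At T8 the differences were 2.61 and 2.36. Both probes were called in each of these comparisons.

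C1qa and C1qb lie close to each other on chromosome 5, and their promoters are shown since the genes moved together after injury. The sequences are the 250 bases before the start of each gene in RefSeq (GRCr8, minus strand), at chr5:154419934-154420183 for C1qa and chr5:154407828-154408077 for C1qb. Capitals mark a match to a searched motif.
C1qa promoter: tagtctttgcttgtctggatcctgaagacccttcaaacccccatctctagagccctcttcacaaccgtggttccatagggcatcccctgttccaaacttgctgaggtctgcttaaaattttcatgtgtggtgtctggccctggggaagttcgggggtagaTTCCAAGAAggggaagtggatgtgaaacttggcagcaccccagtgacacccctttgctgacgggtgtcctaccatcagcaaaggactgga
C1qb promoter: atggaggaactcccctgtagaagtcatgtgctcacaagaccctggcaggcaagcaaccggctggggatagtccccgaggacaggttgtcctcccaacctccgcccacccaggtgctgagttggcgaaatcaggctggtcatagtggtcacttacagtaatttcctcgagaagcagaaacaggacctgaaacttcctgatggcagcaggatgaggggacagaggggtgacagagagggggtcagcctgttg
Promoters of 5 of the 9 genes were in the reference table (C1qa, C1qb, C3, C3ar1 and Cfi). Both strands were searched for the letters GAGGAAGT (PU.1), TTCNNNGAA (STAT), GAAANNGAA (IRF), TTGCGCAA (C/EBP) and GGACTTTCC (NF-kB). The single match was to the STAT letters, 90 bases before the start of C1qa, and 7.67% of 33469 rat promoter windows of the same length hold such a match. The PU.1, IRF, C/EBP and NF-kB letters occurred in 2.04%, 8.12%, 0.14% and 0.266% of all windows and in none of the 5. A match to these letters is a description of the window and shows no binding.

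The classical pathway proteases C1s and C2 rose at all 4 time points. C1s, which cuts C4 and C2 within the C1 complex, ranged from 8.82 to 9.60 in T0, from 10.85 to 11.78 in T1 and from 11.79 to 12.60 in T8. Its difference from T0 was 2.14 (SE 0.31, adjusted p = 5.56e-06) at T1 and 2.87, 3.00 and 2.91 at the later time points, so that the C1s level at T1 was the lowest among the time points. The step from T1 to T8 was 0.77 (SE 0.31), with an adjusted p of 0.139 although the arrays of the 2 groups did not overlap. With the scan session as a block it was 0.95 with an adjusted p of 0.00617. The 2 probes of C1s, shown because this gene was called under one setting and not under the other, lie on the minus strand of chromosome 4 in rn4, at chr4:160737164-160737223 and chr4:160736725-160736784.
C1s upstream probe: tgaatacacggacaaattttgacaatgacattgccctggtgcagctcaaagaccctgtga
C1s downstream probe: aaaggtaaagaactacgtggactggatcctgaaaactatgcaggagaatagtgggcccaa
They rose by 2.21 (SE 0.35) and 2.07 (SE 0.28) at T1 and by 2.92 and 2.90 at T8 against T0. C2, the protease that C1s activates and that forms part of the enzyme cutting C3, rose to a similar level at all 4 time points. It ranged from 10.82 to 11.14 in T0 and from 14.09 to 14.94 over the arrays of T1, T2, T4 and T8. Its log2 differences from T0 were 3.62, 3.71, 3.52 and 3.54 in time order (SE 0.20 for each), an 11.5-fold to 13.1-fold rise. No pair of adjacent time points differed for C2, and the 95% interval of the difference between T8 and T1 ran from -0.50 to 0.34.

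C3, on which all activation routes of complement converge, had a high signal on its own probe before injury and the smallest differences of the 9 genes. It lay at 13.48, 14.24, 13.93 and 14.38 on the T0 arrays and at 15.38, 15.34, 15.54 and 15.10 on the T2 arrays. Every T2 array was above every T0 array, and C3 rose 2.51-fold at T2 (log2 difference 1.33, SE 0.47, adjusted p = 0.0272). At T1, T4 and T8 the differences were 0.83, 0.96 and 0.83, with adjusted p-values of 0.168, 0.118 and 0.177. The SE of C3 came from a spread estimated over all 28 arrays, and C3 varied most in T1_NPC (SD 1.69, against 0.18 to 0.41 in the other groups). When the groups without transplantation were fitted alone, a setting added after the values were seen, C3 rose at all 4 time points, with adjusted p-values of 0.005 at T1, 0.00198 at T4 and 0.00529 at T8. When T1_NPC replicate 2 alone was left out, these were 0.0377, 0.0194 and 0.0400. In limma fits of only the compared groups, a planned setting, they were 0.018, 0.0115 and 0.0362. Undisputed arrays alone, which leave 1 array of T1 and 1 of T4, gave C3 differences of 1.05, 1.34 and 0.89. The call at T2 was lost without T0 replicate 1 (adjusted p = 0.084), T0 replicate 3 (0.0535), T2 replicate 1 (0.0517) or T2 replicate 3 (0.0593).

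**Figure D2:**
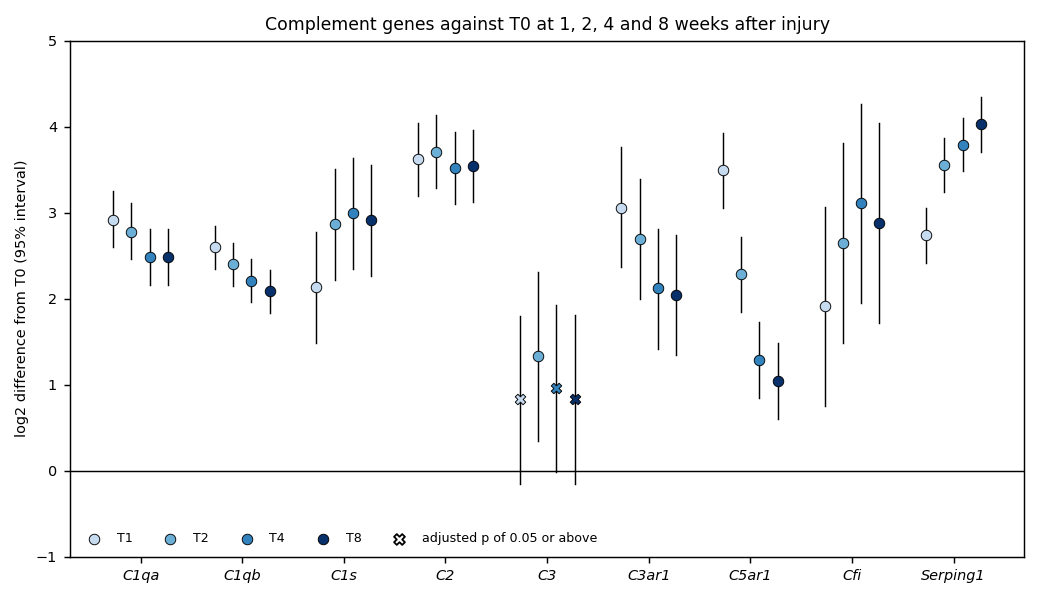
Log2 difference from T0 (vertical axis) of each complement gene (horizontal axis) at T1, T2, T4 and T8, 4 arrays per group. Vertical lines are 95% intervals from the limma fit, circles have an adjusted p under 0.05 and crosses do not. C5ar1 declines from 3.50 to 1.04, Serping1 climbs from 2.74 to 4.03, and the crosses are C3 at T1, T4 and T8.

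Among the time points without transplantation, the receptors of the cascade had their largest differences from T0 at T1. C5ar1, the receptor for the chemoattractant C5a on neutrophils, macrophages and microglia, showed the strongest change over time. It lay at 9.63, 9.53, 9.94 and 8.95 in T0, at 13.10, 13.07, 12.89 and 12.98 in T1 and at 12.02, 11.47, 11.54 and 12.17 in T2. In T4 it lay at 10.87, 10.51, 10.58 and 11.26, and in T8 at 10.14, 10.70, 10.62 and 10.76. The arrays of T1, T2 and T4 formed separate ranges in falling order, T4 and T8 overlapped, and all injured arrays stayed above the highest T0 array. C5ar1 rose 11.3-fold at T1 (log2 difference 3.50, SE 0.21, adjusted p = 4.79e-12) and was still 2.06-fold above T0 at T8 (log2 difference 1.04, SE 0.21, adjusted p = 0.000325). It fell by 1.21 on the log2 scale from T1 to T2 (adjusted p = 0.00372) and by 2.45 from T1 to T8 (adjusted p = 6.53e-08). The step from T2 to T4 was -1.0 (SE 0.21) with an adjusted p of 0.0638. That step passed the threshold without T0 replicate 4 (0.0427), T4 replicate 4 (0.0337) or T1_NPC replicate 2 (0.0426). Within the 2 scan sessions the T2 difference from T0 was 1.72 and 2.85, while the T8 difference was 0.94 and 1.14.

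C3ar1, the receptor for C3a, ranged from 6.73 to 7.26 in T0, from 9.85 to 10.12 in T1, from 9.61 to 9.72 in T2, from 8.83 to 9.30 in T4 and from 8.61 to 9.35 in T8. It rose by 3.06 (SE 0.34, adjusted p = 1.01e-07) at T1 and by 2.04 (adjusted p = 2.91e-05) at T8. The T8 arrays lay below all T1 arrays, and the difference between T8 and T1 was -1.02 (SE 0.34) with an adjusted p of 0.0569. Without T1_NPC replicate 2, whose C3ar1 value was 7.75, the same difference had an adjusted p of 2.42e-05, without T1_NPC replicate 1 one of 0.0423, and with only the groups without transplantation it had one of 0.000162.

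Of the 9 genes, 1 was called higher and 1 lower at T2 than at T1 (1.48% of all features were called in either direction), and these were Serping1 and C5ar1. None was called by limma between T2 and T4 (0.0761% of all features) or between T4 and T8 (0.0902%), with 1 and 0 genes at an unadjusted p under 0.05. Between T1 and T8, where 9.87% of all features were called, Serping1 rose and C1qb and C5ar1 fell. Without T1_NPC replicate 2, 5 genes were called between T1 and T8, C1qa (adjusted p = 0.00959) and C3ar1 being added.

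The regulators Serping1 and Cfi rose at all 4 time points. Serping1 encodes C1 inhibitor, the serpin that blocks C1r and C1s. It lay at 10.26, 10.61, 10.45 and 10.58 in T0 and at 12.92, 13.48, 13.09 and 13.35 in T1. In T2 it lay at 14.11, 13.83, 13.73 and 14.45, in T4 at 14.39, 14.40, 14.17 and 14.11, and in T8 at 14.50, 14.29, 14.65 and 14.55. The T1 arrays were all below the arrays of the later time points, and the T8 arrays were all above those of T1. Serping1 rose 6.66-fold at T1 (log2 difference 2.74, SE 0.15, adjusted p = 9.44e-13) and 16.3-fold at T8 (4.03, SE 0.15, adjusted p = 2.75e-15). The rise from T1 to T2 was 0.82 (SE 0.15, adjusted p = 0.00523) and that from T1 to T8 was 1.29 (SE 0.15, adjusted p = 2.98e-06). With only T1 and T2 in the fit the first of these had an adjusted p of 0.149. One of its 2 probes lies early in the transcript and is shown because its 60 bases span 1340 bases of rn4 (minus strand, chr3:67975119-67976458), so that the probe joins sequence that lies apart in the genome.
Serping1 upstream probe: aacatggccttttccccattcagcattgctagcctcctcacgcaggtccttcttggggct
From T1 to T8 this probe rose by 1.40 (SE 0.21, adjusted p = 6.63e-05) and the other, which starts at base 1714, by 1.18 (SE 0.13, adjusted p = 1.27e-06). From T1 to T2 only the latter was called (0.87, adjusted p = 0.00119, against 0.77, adjusted p = 0.0661).

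Cfi, factor I, the protease that degrades C3b and C4b, had the widest spread of the 9 genes within T1, T2, T4 and T8. In T1 it lay at 8.99, 8.33, 8.74 and 6.92 and in T8 at 8.24, 9.52, 10.40 and 8.71, with T0 between 5.84 and 6.70. All injured arrays were above the highest T0 array. Its difference from T0 was 1.91 (SE 0.56, adjusted p = 0.0075) at T1 and 2.65, 3.11 and 2.88 at T2, T4 and T8. With undisputed arrays alone, 1 of T1 and 2 of T0, the T1 difference of Cfi was 2.84. These arrays are also those of T1 and T0 in scan session 1, and in scan session 2 the difference was 1.47. The SD of Cfi was 0.36 in T0 and 0.87 to 0.95 in the injured groups of the time course. The difference between T8 and T1 was 0.97, with a 95% interval from -0.19 to 2.13.

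Markers of microglia and macrophages also rose after injury, and their part in the results was not tested. The mean log2 level of the 12 markers ranged from 9.14 to 9.54 in T0, 12.09 to 12.33 in T1, 11.57 to 12.10 in T2, 11.47 to 11.76 in T4 and 11.38 to 11.73 in T8. Of the 12, 11 were called higher at T1 and 10 at T2, T4 and T8, and 4 were called lower at T8 than at T1 (Cd68, Trem2, Mrc1 and Laptm5). Tmem119 and P2ry12, which mark resident microglia, differed from T0 by 0.61 (adjusted p = 0.503) and 1.11 (adjusted p = 0.00475) at T1. Cd68, a lysosomal protein of phagocytes, differed by 7.05.

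The change of each complement gene was also set beside that of the marker mean, as a description. Relative to the marker mean and to T0, C1qb lay between -0.21 and -0.03 on average in T1, T2, T4 and T8 and overlapped T0 in each. Serping1 lay at -0.07 (SD 0.20) in T1, 1.13 (SD 0.09) in T2, 1.50 (SD 0.09) in T4 and 1.85 (SD 0.14) in T8. C5ar1 moved the other way, from 0.69 (SD 0.15) in T1 to -0.14 in T2, -1.0 in T4 and -1.13 (SD 0.41) in T8. C2 was 0.81 to 1.37 above and C3 was 1.10 to 1.98 below the marker change on average.

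**Figure D3:**
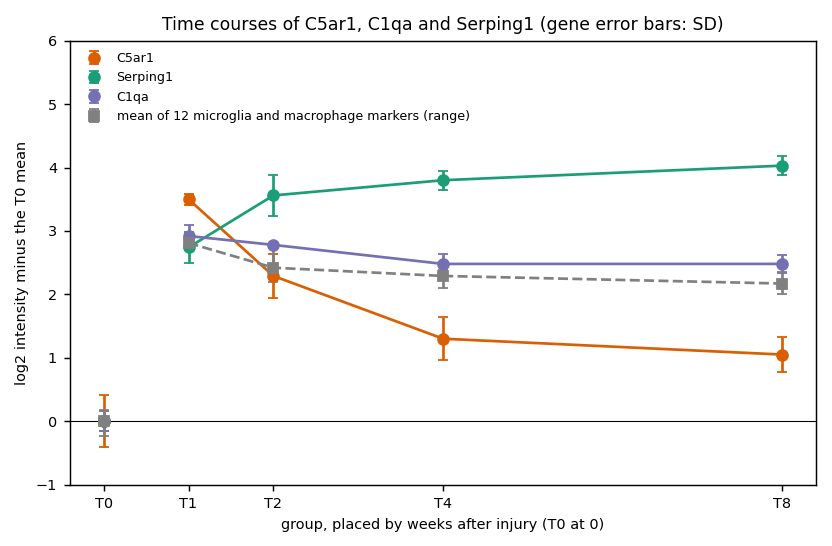
Mean log2 intensity minus the T0 mean (vertical axis) of C5ar1, C1qa and Serping1, with the groups of the time course placed by weeks after injury (horizontal axis), 4 arrays per group. Gene error bars are SD, and the dashed line is the mean of 12 microglia and macrophage markers with the range of the arrays. Serping1 leaves the marker line upwards from T2 onwards and C5ar1 falls below it by T4.

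Other cell types that can express C5ar1 or make complement proteins were checked in the same way. The mean of 6 neutrophil markers ranged from 3.01 to 3.91 in T0, 4.78 to 5.28 in T1, 3.95 to 6.20 in T2, 4.32 to 4.82 in T4, 4.35 to 4.78 in T8, 5.23 to 6.21 in T1_NPC and 4.2 to 4.31 in T2_NPC. T2 replicate 4, at 6.20, was above every T1 array. Among the T2 arrays it was the highest for C1qa, C1s, C2, C5ar1 and Serping1. It was the lowest for C1qb (17.10), C3 (15.10) and Cfi (7.61), and level with the lowest for C3ar1 (9.61). Its means of microglia and macrophage (12.10), T cell (8.34) and fibroblast and pericyte (13.74) markers were also the highest of T2. At T1, 3 of the 6 neutrophil markers were called higher (S100a8, S100a9 and Csf3r), and at T8 only Csf3r was. The granule enzyme Mpo and Cxcr2 were each well above background on 1 of 28 arrays, Elane on 15, and S100a8 on 1 T0 array. The neutrophil mean therefore includes values near background. Csf3r fell from T1 to T8 by 1.30 on the log2 scale (SE 0.42, adjusted p = 0.0474). The part of neutrophils in the C5ar1 values was not tested. No hepatocyte marker was called higher at T1 and 2 of 5 were called lower, with the marker mean between 3.98 and 4.69 in T0 and between 3.67 and 4.03 in T1. Of these markers, Ttr was well above background on 0 T0 arrays and Fga on 2. Fibroblast and pericyte markers rose in 6 of 6 cases at T1 and T8, with means of 9.82 to 10.34 in T0, 13.07 to 13.87 in T1 and 12.51 to 13.28 in T8. Of the remaining lists at T1, 1 of 6 astrocyte markers rose and 2 fell, 3 of 5 endothelial markers rose, none of 2 red blood cell markers was called, and 1 of 5 skeletal muscle markers rose and 2 fell.

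A further 45 complement genes were listed, and 40 of them were on the array. At T1 17 of the 40 rose and 3 fell (median log2 difference 0.47), where 19.1% of all features were called higher and 25.1% lower. At T2 21 rose and 3 fell (17.7% and 22.2% of all features), and at T4 19 rose and 2 fell (17.5% and 21%). At T8 21 rose and 2 fell (18.2% and 21.5%), with a median of 0.81 against -0.04 over all features. Of those selected for their size, Cfd, factor D of the alternative pathway, ranged from 9.11 to 10.02 in T0 and from 14.51 to 14.77 in T1, a 37.5-fold rise (log2 difference 5.23, SE 0.18, adjusted p = 2.00e-16). It was 28.6-fold above T0 at T8. Fcnb, ficolin B, a lectin of the complement lectin pathway found in myeloid cells, rose 39.8-fold at T1 (5.31, SE 0.40) and 14.3-fold at T8. C6, a component of the membrane attack complex, was 13.4-fold above T0 at T8 (3.75, SE 0.52, adjusted p = 3.34e-06).

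Vsig4, a macrophage receptor for C3b, was not well above background on any T0 array and was so on all 4 T1 arrays. Its level at T1 was at least 18.7-fold higher (adjusted p = 4.19e-05), with measured means of 8.25 in T1 and 1.37 in T0. The genes with the lowest differences at T1 among those called were Cd59, the inhibitor of the membrane attack complex (-0.55, adjusted p = 0.00422), Vtn, vitronectin (-0.58, adjusted p = 0.00722), and Csmd1. Csmd1, a regulator found on neurons, was not well above background on any T1 array and was so on 2 of 4 T0 arrays, so its level at T1 was at least 1.46-fold lower (adjusted p = 0.0217). Vtn changed sides with time and was 1.19 above T0 at T8 (adjusted p = 5.48e-06). At T8, 2 listed genes fell. For Csmd1 (adjusted p = 0.000352) no fold is given, since it was well above background on 1 of 4 T8 arrays and 2 of 4 T0 arrays. The other was C1qbp, whose protein binds the globular heads of C1q (-0.28, SE 0.08, adjusted p = 0.00805).

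C1qc, the remaining chain of C1q, changed in the same direction as C1qa and C1qb. It ranged from 9.64 to 10.38 in T0, from 14.01 to 14.49 in T1 and from 12.49 to 12.97 in T8. It rose by 4.15 (SE 0.16) at T1 and by 2.70 at T8, and fell by 1.45 (SE 0.16, adjusted p = 1.88e-06) between those times.

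**Figure D4:**
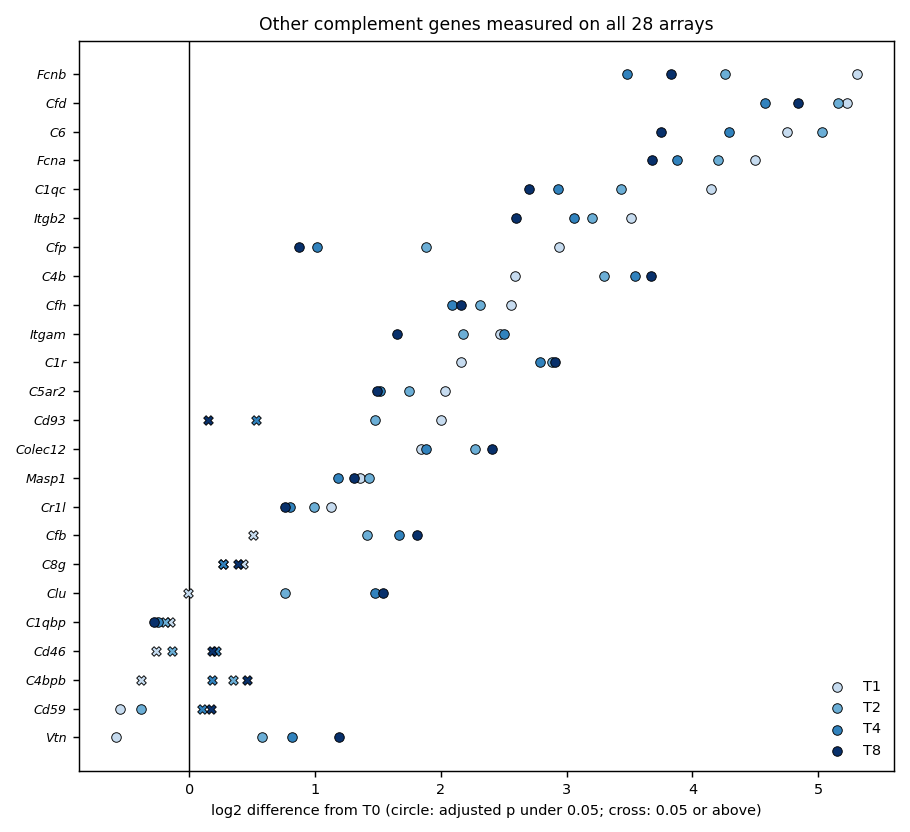
Log2 difference from T0 (horizontal axis) at T1, T2, T4 and T8 of the other complement genes whose signal exceeded background on each of the 28 arrays (vertical axis), 4 arrays per group. Circles have an adjusted p under 0.05 and crosses do not. Fcnb and Cfd lie farthest to the right, and Vtn lies at -0.58 at T1 and at 1.19 at T8.

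After NPC transplantation at the time of injury, none of the 9 genes differed from injury alone by the test. Of all features, 11.9% were called between T1_NPC and T1. By limma 0 of 9 complement genes were called, with 1 (C3) at an unadjusted p under 0.05. The 95% intervals allowed differences of -0.26 to 0.39 for C1qa and -0.44 to 0.06 for C1qb. They were -0.29 to 0.59 for C5ar1, -0.11 to 0.51 for Serping1 and -0.15 to 0.69 for C2. Wider intervals were those of C1s (-0.4 to 0.89), C3ar1 (-1.16 to 0.23), Cfi (-1.12 to 1.2) and C3 (-2.27 to -0.32). For these genes larger differences were therefore not excluded. C3 lay at 14.89, 11.45, 12.89 and 14.93 on the T1_NPC arrays, against 14.76, 14.97, 14.49 and 15.12 on the T1 arrays. Thus 2 T1_NPC arrays were close to the T1 arrays, and replicates 2 and 3 were below every T0 array. The difference was -1.30 (SE 0.47, adjusted p = 0.075). It was -0.60 (adjusted p = 0.314) without T1_NPC replicate 2, and it passed the threshold without T1_NPC replicate 1 (-1.75, adjusted p = 0.0147) or without T1_NPC replicate 4 (-1.76, adjusted p = 0.0146).

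T1_NPC replicate 2 stood apart in other genes as well. Its C3ar1 level was 7.75, against 10.31, 10.14 and 10.01 on the other 3 arrays of the group, and its C1qa level was 16.18, against 16.91 to 17.22. On this array the means of the microglia and macrophage markers (11.35), T cell markers (6.23), fibroblast and pericyte markers (12.01) and astrocyte markers (12.45) were the lowest of the group. The means of neuronal (11.31), hepatocyte (5.20), neutrophil (6.21), endothelial (8.72) and red blood cell (12.01) markers were the highest. C5ar1 (13.29) and Serping1 (13.29) on the same array lay within the range of the group. By rank, this column matched the scanner output deposited for T0 replicate 2, so its sample name is disputed, as for every T1_NPC array. The part of this array's composition or of its disputed name in its C3 and C3ar1 values was not tested.

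Between T2_NPC and T2, 1 of the 9 genes was called (C1qa, higher in T2_NPC), where 9.47% of all features were called. No T2 array shared the slide or scan session of the T2_NPC arrays, so transplantation cannot be told apart from these. C1qa lay at 17.30, 17.14, 17.43 and 17.03 in T2_NPC and at 16.61, 16.62, 16.62 and 16.63 in T2. All T2_NPC arrays were above all T2 arrays, and the log2 difference was 0.61 (SE 0.16, adjusted p = 0.0171), a 1.52-fold rise. Both probes were called (0.69 and 0.52). The call was lost without T2_NPC replicate 3 (0.54, adjusted p = 0.0587), with the slide as a random block (0.60, adjusted p = 0.0623) and with scaling to the 75th percentile (0.40, adjusted p = 0.17). C1qc also rose, by 0.53 (SE 0.16, adjusted p = 0.0433), whereas for C1qb the difference was 0.06 with a 95% interval from -0.19 to 0.31. None of the 12 microglia and macrophage markers was called in this comparison, and their mean ranged from 11.79 to 12.06 in T2_NPC and from 11.57 to 12.10 in T2. Markers of other cells did move: 2 of 7 oligodendrocyte markers were higher in T2_NPC (mean 14.71 to 14.87, against 14.14 to 14.60 in T2), as were 1 of 2 red blood cell markers (10.98 to 13.18, against 9.83 to 10.93), 1 of 5 endothelial markers (8.16 to 8.28, against 7.71 to 8.06) and 1 of 5 skeletal muscle markers. Their part in the C1qa result was not tested.

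For the other genes the differences between T2_NPC and T2 did not pass the test. C1s differed by 0.85 (SE 0.31, adjusted p = 0.0893), C2 by 0.54 (SE 0.20, adjusted p = 0.0952) and C5ar1 by -0.54 (SE 0.21, adjusted p = 0.11), with the arrays of the groups not overlapping for C2 and C5ar1. Without T2 replicate 4 the C1s difference was 1.08 with an adjusted p of 0.0341, and without T1_NPC replicate 2 that of C2 had an adjusted p of 0.0455. With the 6 undisputed arrays of these groups, 4 of T2_NPC and 2 of T2, 4 genes were called higher in T2_NPC (C1qa, C1s, C2 and Serping1). Of the 40 other complement genes, 2 were called higher and none lower between T1_NPC and T1 (5.45% and 6.46% of all features). Between T2_NPC and T2, 1 was called higher and 1 lower (4.62% and 4.85% of all features). Cd59 was higher in T1_NPC than in T1 (0.50, SE 0.15, adjusted p = 0.0289). The genes called in T2_NPC were C1qc and Cfd (-0.57, SE 0.18, adjusted p = 0.0497).

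**Figure D5:**
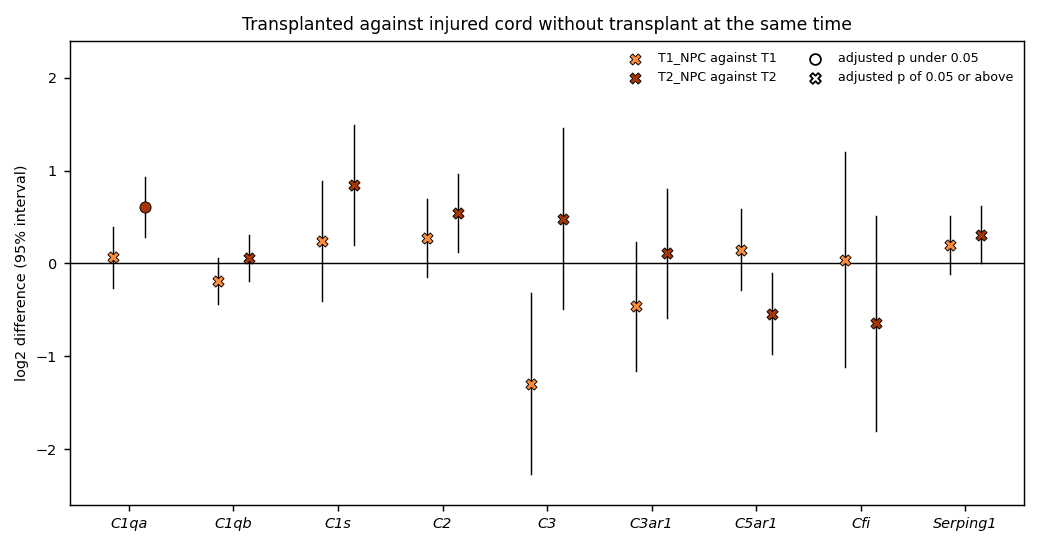
Log2 difference (vertical axis) between transplanted cords and injured cords without transplant of the same time for the 9 complement genes (horizontal axis), 4 arrays per group. Vertical lines are 95% intervals from the limma fit, circles have an adjusted p under 0.05 and crosses do not. The only circle is C1qa in T2_NPC at 0.61, and C3 in T1_NPC has the largest negative value (-1.30).

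The transplantation effects were also compared with each other. By limma none of the 9 genes was called for a difference between the acute and the subacute effect (0.299% of all features were called), with 3 at an unadjusted p under 0.05. The difference was -0.54 (95% interval -1.0 to -0.08) for C1qa, -1.78 (-3.16 to -0.40) for C3 and 0.69 (0.07 to 1.31) for C5ar1. Transplanted cords remained above T0. In T1_NPC 8 of 9 genes were called higher (22.8% of all features) and in T2_NPC all 9 were (21.2%). C3 was the exception in T1_NPC, at -0.47 (SE 0.47, adjusted p = 0.427), and was 1.81 above T0 in T2_NPC (adjusted p = 0.00271).

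Ordered by level, T0 was the lowest of the 7 groups for 8 of the 9 genes, and the next lowest group differed from it for each of those 8. For C3, T1_NPC was lowest. Among the 6 injured groups, neighbours in the order were not called different, except T1 over T2 for C5ar1 and T2 over T1_NPC for Serping1 (0.62, adjusted p = 0.0048). Some neighbours that were not called had separate ranges, among them T2_NPC over T4 for C1s (0.72, adjusted p = 0.18), T2 over T4 for C1qa (0.30, adjusted p = 0.599) and T2 over T2_NPC for C5ar1. C1s was highest in T2_NPC (12.93 ± 0.21, SD, n = 4), Cfi in T4 (9.45 ± 0.87) and C2 in T2_NPC (15.20 ± 0.15). The pattern most like the mean of the 9 standardized genes over the 28 arrays was that of Atf3, a stress-induced transcription factor (Pearson r = 0.984). It was followed by Mpeg1, a macrophage gene for a pore-forming protein (0.982), Tmem176a (0.98), Arl11 (0.979) and Slamf9 (0.978). These values largely rest on the gap between T0 and injured arrays, and over the 24 arrays other than T0 they were 0.767, 0.807, 0.851, 0.712 and 0.702.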

How the data were processed

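RNA of 28 spinal cord samples (7 groups of 4) was hybridised by the authors to single-colour (Cy3) 44K arrays. Groups came from the sample labels. The authors deposited scanner outputs of Agilent Feature Extraction 10.7.1.1, with a processed intensity per spot, corrected for background but not between arrays. They also deposited a value table of log2 intensities, quantile normalized between arrays. The value table was analysed. Its columns and the scanner outputs conflict on 16 of 28 samples, so each column was matched to a scanner output by rank to obtain flags, slide (7) and scan session (3). Only 8 scanner outputs carry gene names and probe sequences, and these were joined to the table by spot number.

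The 1639 control spots were left out, 43379 spots were averaged to 41012 probes and these to 35469 gene names. A mean per group was fitted in R 4.3.3 by limma 3.58.1, with empirical Bayes moderation (2.26 prior degrees of freedom) and all arrays in the fit. P-values were adjusted by Benjamini-Hochberg over all features, with calls under 0.05. Intervals are 95%. No filter on dim probes was applied. Where a gene was not well above background on any array of a group, the fold is a bound: the mean of the brighter group against, per array, the higher of the gene's value and the lowest probe well above background. The scripts were tested on simulated data.

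The complement genes, the other lists and the tests were chosen with earlier results of these data known. Named besides the 9 genes are, of the other complement genes, the 3 highest and 3 lowest called differences in T1 and T8 against T0 and in both transplantation comparisons, markers where a list needed them, and the 5 genes of most similar pattern. One gene that this rule names is not reported here. C1qc values beyond this rule, and Cd68, were named after their values were seen. Other complement genes and markers were matched by array gene name, or by a synonym belonging to 1 symbol. For normexp correction the median signal stood in for the mean signal, which some scanner outputs lack. Alternatives are given in the closing section. The labels do not say whether same-numbered arrays share a litter or day, and deviations of same-numbered arrays from their group means correlated between -0.339 and 0.274, so numbers were not taken as pairs. Rat sequences are from the array annotation (rn4) and RefSeq (GRCr8). The number of arrays limits the precision.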

Additional observations from a re-analysis of the deposited data

Results flagged for a closer look

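For 5 of 63 combinations of a gene and a group, the gap of the outermost array to the next as a share of the group's range, exceeded Dixon's 95% critical value for 4 samples, and chance alone flags about 1 in 20. C3ar1 on T1_NPC replicate 2 lay at 7.75, with the next array at 10.01. C3ar1 on T2_NPC replicate 1 lay at 10.00, above the next at 9.69. C5ar1 on T1_NPC replicate 4 lay at 12.77, below the next at 13.25. C5ar1 on T2_NPC replicate 3 lay at 10.83, below the next at 11.36. Cfi on T2 replicate 4 lay at 7.61, below the next at 9.24. No difference between the acute and the subacute transplantation effect was called for the 9 genes.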

How the results depend on the processing

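A fit without the transplanted groups was added as a setting chosen after seeing the data. It left 67 values of single genes on their side of the threshold and brought 5 past it. Over the other alternatives with a test, leaving out an array aside, 1442 such values kept their side, 25 passed the threshold, 62 no longer passed it and 1 was reversed. Leaving out single arrays gave 3258, 13 and 5 of the first 3 kinds. Among the values counted as keeping their side, 68 that were not called changed sign. With scanner outputs under their deposited samples, 0 of the 9 genes were called in T1, T2, T4, T8 or T1_NPC against T0, T2 against T1, T8 against T1 or T2_NPC against T2, and 2 in T2_NPC against T0. C1qb in T8 against T1 was then 0.38 in place of -0.51. These arrays mix the groups of the value table. With undisputed arrays alone, 4 genes were called in T2_NPC against T2. T2 against T1 then rests on 1 T1 array, with C5ar1 at -1.59 and Serping1 at 0.86. Scaling to the 75th percentile gave 1 gene in T1_NPC against T1 (C3, -1.46, adjusted p = 0.0308 by limma) and 0 in T2_NPC against T2. It moved the median of all features to -0.27 in T1 against T0, 0.15 in T8 against T1 and 0.11 in T1_NPC against T1. In T4 against T2, 1 gene (C5ar1) was called with normexp, a trended robust prior or the slide as a random block. In T2 against T1, 1 was called when every probe had to pass and when only the compared groups were fitted. In T8 against T1, 5 were called with the slide as a random block, the scan session as a block or without transplanted groups. The random slide block left 0 in T2_NPC against T2. The cause was not tested.

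Leaving out single arrays gave 8 to 9 genes in T1, T2, T4 and T8 against T0, 8 to 8 in T1_NPC and 9 to 9 in T2_NPC against T0. It gave 2 to 2 in T2 against T1, 0 to 1 in T4 against T2, 0 to 0 in T8 against T4 and 3 to 5 in T8 against T1. It gave 0 to 1 in T1_NPC against T1, 0 to 2 in T2_NPC against T2 and 0 to 0 for the difference of the transplantation effects. With the replicate number as a block, 8 genes were called in T1 against T0 and 3 in T8 against T1, and no other count of the 9 genes changed. Within scan sessions 63 differences from T0 lay within the replicate SD of the pooled value and 9 did not. Transplantation comparisons could not be estimated with slide or session as a fixed block, nor the acute ones with undisputed arrays alone. Each group rests on 4 arrays, and p-values set a difference against the spread between arrays of a group, pooled over the fitted groups.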
